A study of Bos taurus with 20 samples.

Results

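The variation of gene expression among 6 fresh whole bovine embryos at day 14 is described here gene by gene and function by function. Of the 15542 genes in the deposited table, 3897 (25.1%) had a mean of at least 1 RPKM over these embryos. RPKM counts the reads of a gene per kilobase of its length and per M (1000000) sequenced reads. Genes were selected on that mean and ranked by the SD of log2(RPKM + 1) after median-ratio scaling of the 6 libraries, so all spreads and correlations among these embryos are descriptions of the values used for selection and carry no test. The study recovered viable embryos from the uterus by flushing at day 14 and sequenced RNA of whole embryos or of isolated trophectoderm (TE), from embryos that had or had not been vitrified, that is, cryopreserved in a glass-like state. The 6 fresh embryos had not been vitrified. The labels give them a single cell type, embryonic cells, and do not give sex, parents, recovery session or sequencing batch. Values of 7 TE samples from vitrified embryos and of 5 from fresh embryos, which had no part in the selection, are set beside some results.

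At this stage the bovine embryo elongates inside the uterus before it attaches. Its outer epithelium, the trophectoderm, gives rise to the placenta and secretes interferon tau, the signal by which a ruminant embryo maintains pregnancy. The epiblast, a small disc, forms the body, and the hypoblast lines the yolk sac. Housekeeping complexes such as the cytosolic ribosome, the mitochondrial ribosome and the proteasome are built from many subunits in fixed proportions, and the messenger RNAs of a complex often rise and fall together.

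The label of whole embryos was checked against markers, with levels per kilobase of genomic span, introns included. The keratins KRT18 and KRT8, which form the filaments of simple epithelia, had medians of 1090 and 434 scaled RPKM over the 6 embryos. APOA1, an apolipoprotein made by the hypoblast, had a median of 722 scaled RPKM. POU5F1, the pluripotency factor of the epiblast, had a median of 1.78 scaled RPKM, NANOG one of 0.567 and SOX2 one of 0.349, so of these 3 factors only POU5F1 passed the mean of 1. Levels of the marker lists overlapped widely. SLC2A3, a glucose transporter in the epiblast list, had a median of 37.1 scaled RPKM, while the trophoblast factor GATA3 had one of 0.462 and the hypoblast factor GATA6 one of 0.014. In whole embryos, fewer cells of a type and less RNA per cell cannot be told apart. XIST, CDX2 and IFNT2 were not analysed here.

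Depth ranged between 6.09 and 14.5 M reads per library, and 57.5 to 61.1% of these fell in listed genes. Embryo 4 had the lowest total and the fewest genes with at least 10 reads, 8003 against 8614 to 9757 in the other embryos. Mitochondrial ribosomal RNA took 3.13% of its reads in listed genes, against 1.13 to 1.90% in the others. Of 20 genes looked for as X- or Y-linked, 10 were found, and of these 5 were highest in embryo 4 and 3 in embryo 3. Among all members with 50 reads these shares were 28.3 and 11.8%. DDX3Y, known as the Y-linked copy of an RNA helicase gene, is placed by the deposited table on chromosome X (143364826 to 143375659). It had 0 reads in embryo 4, which allows up to 0.047 scaled RPKM at 3 reads, and 1.30 to 2.11 scaled RPKM in the other 5 embryos. The X-linked genes EIF2S3, a translation initiation factor, and ZFX, a transcription factor, were highest in embryo 4, at 10.8 and 0.906 scaled RPKM, against at most 8.88 and 0.616 in the others. DDX3X, the X-linked copy of the helicase, did not follow them. It had 2.004 scaled RPKM in embryo 4, the second lowest value, and 3.47 in embryo 3. KDM5C and KDM6A, histone demethylase genes, were also highest in embryo 3, KDM5C narrowly, at 0.164 scaled RPKM against 0.161 in embryo 4. RPS4Y1, named for a Y-linked ribosomal protein gene but placed on chromosome 23, was lowest in embryo 4, at 21.5 scaled RPKM. Values without embryo 4 stand beside the main counts, list means and widest spreads.

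Among the 3897 genes, the median SD was 0.25 on the log2(RPKM + 1) scale, with a 10th percentile of 0.12 and a 90th percentile of 0.52. The SD that counting of reads alone would give had a median of 0.06, and 3267 genes (83.8%) had an SD over 2 times their own counting SD. An SD of 0.5 or more was reached by 447 genes (11.5%) and an SD of 1 or more by 29 (0.744%). Without embryo 4, 231 genes had an SD of 0.5 or more and 16 an SD of 1 or more. The count of 29 became 50 without embryo 5 and 133 with a pseudocount of 0.1. The 5 genes just above the mean threshold had means of 1.001 to 1.003 RPKM and SDs of 0.12 to 0.36, and the 5 just below it had means near 0.996 to 0.999 RPKM and SDs of 0.07 to 0.23. In the members, 648 genes were under 1 RPKM, before scaling, in at least 1 embryo. Pseudogenes were 23 of the first 100 genes by SD and 258 of all members (6.62%). Reads of such copies may be shared with their parent genes by the authors' counting.

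**Figure D1:**
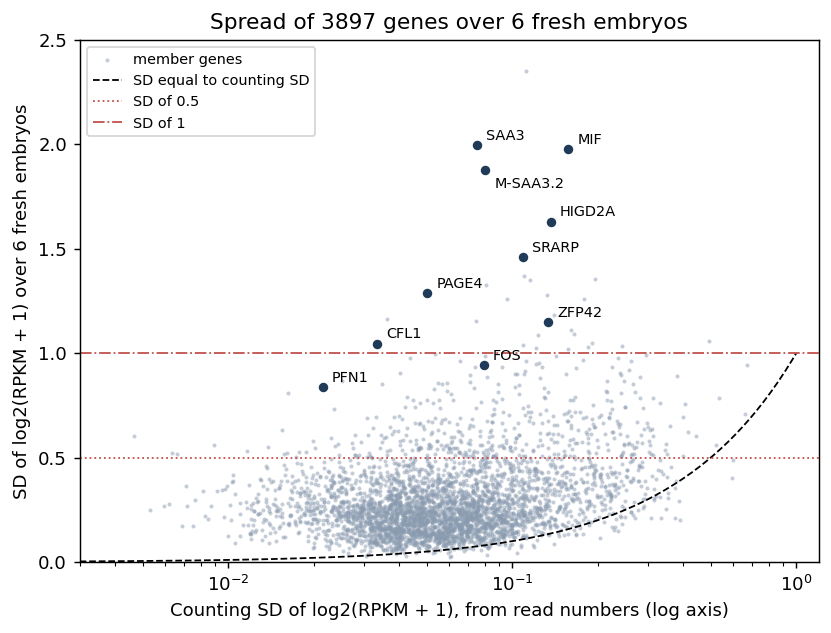
SD of log2(RPKM + 1) over the 6 fresh embryos (vertical axis) against the SD that read counting alone would give (horizontal log axis), 1 point per member gene, with 10 named genes marked in dark. Points above the dashed curve vary by more than their counting SD, and horizontal lines mark SDs of 0.5 and 1, passed by 447 and 29 of 3897 genes.

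The row with the largest SD, 2.35, carried an identifier without a symbol and is not named here. Among genes with a symbol, SAA3 had the widest spread. SAA3, an acute-phase serum amyloid A gene (chromosome 29, 26668047 to 26671802 on UMD3.1), had 0.213, 2.73, 0.0201, 36.2, 0.0236 and 2.62 scaled RPKM in embryos 1 to 6. Its neighbouring copy M-SAA3.2 (chromosome 29, 26755560 to 26759546) had 0.401, 4.78, 0.227, 30.5, 0.245 and 5.51 scaled RPKM, and the authors' counting may have split reads between these copies. Embryo 4 was highest, embryos 2 and 6 stood between, and embryos 1, 3 and 5 were lowest for both genes. Their SDs were 1.995 and 1.88 with all 6 embryos, and 0.98 and 1.24 without embryo 4. In the 7 vitrified TE samples the same SDs were 0.05 and 0.15. The pseudocount of 1 narrows the SD of genes at low levels, and the levels of both genes in these TE samples are not given here.

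Some other defence genes, chosen after their values were seen and for this order of embryos, had the same 3 embryos in front. WFDC2, a protease inhibitor of epithelial secretions, had 0.205, 1.92, 0.095, 3.16, 0.112 and 1.93 scaled RPKM. CXCL2, a chemokine that attracts neutrophils, had 0.162, 1.47, 0, 6.38, 0.129 and 1.003 scaled RPKM, from 21.8 reads on average. ISG15, a ubiquitin-like protein induced by interferon, had 0.0642, 1.52, 0, 5.76, 0 and 1.61 scaled RPKM, from only 11 reads on average. Embryo 4 led each of these genes and embryos 2 and 6 followed. Without embryo 4 the SDs were 0.76 for WFDC2, 0.58 for CXCL2 and 0.74 for ISG15. Of 28 interferon-response genes found in the table, 15 were highest in embryo 4. Among all members with 50 reads this share was 28.3%, but most of the 28 genes averaged fewer reads than that. Only 15 of the 28 averaged at least 10 reads, and 7 of these were highest there. Of the 6 that were members only ISG15 was. The 4 members with 50 reads on average were highest in other embryos. IFITM3, an antiviral membrane protein, was lowest in embryo 4, at 89.7 scaled RPKM against 197 to 284 in the others. IRF7, an interferon regulatory factor, was highest in embryo 1, IFITM2, a relative of IFITM3, and B2M, the light chain of class I molecules, in embryo 3, and PLAC8 in embryo 2. LTF, the iron-binding lactoferrin of secretions, was not a member, and its 0.840 scaled RPKM in embryo 4 stood above 0.337 in embryo 6, 0.135 in embryo 2 and at most 0.00975 in the others. Of 11 endometrium markers found, 7 were highest in embryo 4, against 28.3% of all members with 50 reads. Only 3 of the 11 averaged at least 10 reads, and these 3 were highest there. Embryo 4 was the shallowest library, and no share over genes with few reads stands beside the interferon and endometrium counts. Only MUC1, a mucin of epithelial surfaces, was a member, with 1.74 to 5.20 scaled RPKM and its highest value in embryo 4. SCGB1A1, a secreted uteroglobin, had 0 in 3 embryos and 0.388 scaled RPKM in embryo 4, and the endometrial factors FOXL2, HOXA10 and HOXA11 were each at 0 in 5 of 6 embryos. The part of maternal cells or secretions in these values was not tested.

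**Figure D2:**
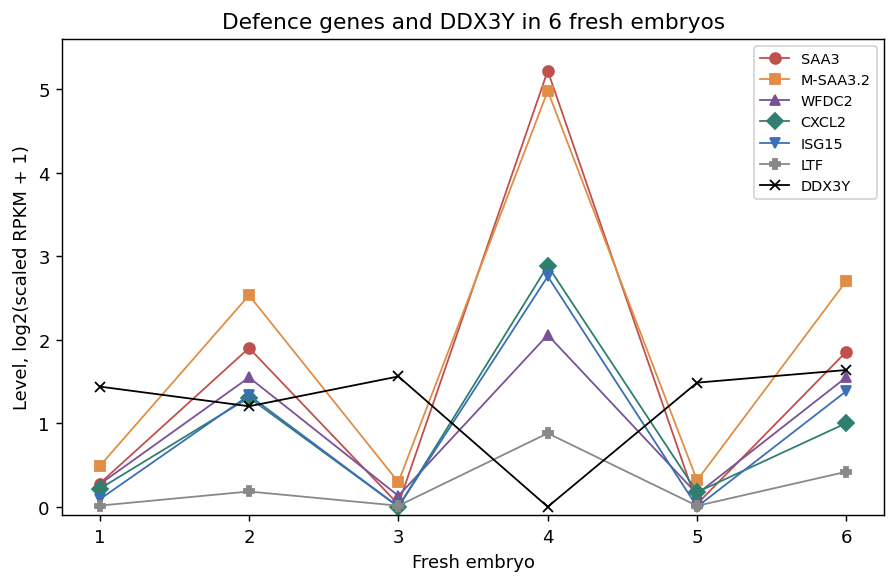
Levels of 6 defence genes and of DDX3Y, as log2(scaled RPKM + 1), in each of the 6 fresh embryos, which have no order, with lines joining the values of a gene. SAA3 and M-SAA3.2 were named for their SD, and the other defence genes were chosen for their peak in embryo 4. Embryos 2 and 6 come next for all 6 defence genes. DDX3Y stands at 0 in embryo 4, and IFITM3, IRF7, IFITM2 and B2M, not plotted, do not peak there.

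A second set of strongly varying genes was lowest in embryo 4. MIF, a cytokine first known for stopping macrophage migration (chromosome 17, 73273379 to 73274172), had 75.1, 20.4, 56.1, 0.647, 31.0 and 15.5 scaled RPKM in embryos 1 to 6, and an SD of 1.98 that became 0.93 without embryo 4. PAGE4, an X-linked gene of the PAGE antigen family, had 37.8, 84.3, 46.6, 5.55, 56.4 and 42.7 scaled RPKM, and its SD of 1.29 became 0.45 without embryo 4. HIGD2A, which helps to assemble respiratory chain complexes, had another order, with 59.0, 38.8, 11.7, 2.43, 11.2 and 57.1 scaled RPKM, and an SD of 1.63 that became 1.15 without embryo 4. Embryo 4 was lowest for these 3 genes, while the highest embryo was embryo 1 for MIF and HIGD2A and embryo 2 for PAGE4. SRARP, a regulator of steroid receptors, ran the other way, with 27.8 scaled RPKM in embryo 4 and 0.928 to 2.76 in the other embryos, and its SD of 1.46 became 0.47 without embryo 4.

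A principal component analysis of the members placed 62.2% of the variance on a first axis and 12.4, 9.90 and 9.42% on the following 3. Scores on the first axis were -0.29, 0.24, -0.39, 0.77, 0.01 and -0.34 for embryos 1 to 6. Embryo 4 lay at the positive end and embryo 2 next to it, with embryos 1, 3 and 6 together at the negative end. Across genes, 708 members (18.2%) correlated with this axis at r above 0.8 and 917 (23.5%) at r below -0.8. TSN, the DNA- and RNA-binding protein translin, was among the genes with negative r, at r = -0.999. Leaving out embryo 4 lowered the share of the first axis to 49.6%.

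Library measures moved with the first axis over the 6 embryos. Its r was -0.835 with total reads (rho = -0.714, and -0.691 without the 2 libraries farthest from the median total). With the percentage of reads in listed genes, r was -0.880 (rho = -0.886, and -0.640 without 2). With mitochondrial ribosomal RNA, r was 0.889 (rho = 0.771, and 0.420 without 2). The part of depth or RNA quality in the first axis was not tested. Rank correlations of a gene's r on this axis were 0.147 with genomic span and -0.128 with level, across genes that are not independent.

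Average linkage clustering of the 500 most variable members with at least 50 reads on average gave 2 large groups. The larger held 340 genes that were high in embryos 1, 3 and 6 and low in embryo 4, with a mean pairwise r of 0.754 (0.532 without embryo 4). The other held 141 genes that were high in embryos 4 and 2 and low in embryo 3, with a mean pairwise r of 0.698 (0.571 without embryo 4). In the 7 vitrified TE samples these gene sets had mean pairwise r of 0.200 and 0.276, beside 0.0192 over all pairs of members with 50 reads. In the 5 fresh TE samples, of which samples 1 and 2 and samples 3 and 4 are near-identical and which thus amount to about 3, the values were 0.112 and 0.0745. Both sets were short in genomic span, with medians of 2.91 and 3.73 kb against 6.51 kb for all members. The clustered genes were chosen by SD, which had a rank correlation of 0.292 with level over all members, and level is per kilobase of span. The part of this choice in the short spans was not tested. Pseudogenes were 59 of the 340 genes, against 6.62% of all members.

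The group of 340 genes held actin regulators and a tight junction gene, among others. CFL1, the actin-severing protein cofilin, had 157, 51.2, 169, 26.7, 75.4 and 140 scaled RPKM in embryos 1 to 6. PFN1, the actin monomer-binding protein profilin, had 278, 173, 334, 70.3, 145 and 288 scaled RPKM. Embryos 1, 3 and 6 were high and embryos 2, 4 and 5 low for both genes. CLDN6, a claudin of tight junctions, had the same split, with 36.3, 45.0 and 30.1 scaled RPKM in embryos 1, 3 and 6, against 12.1, 4.33 and 17.8 in embryos 2, 4 and 5. Of the 36 cytoskeleton members, 14 correlated with the first axis at r below -0.8 (23.5% of all members) and 9 at r above 0.8 (18.2% of all members), and the mean pairwise r of the list was -0.0111. GAPDH, the glycolytic enzyme often used as a loading standard, ranged between 114 scaled RPKM in embryo 4 and 278 in embryo 3.

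Among the 38 functional lists, 31 had at least 5 members with 50 reads, and covariation within a list was summarised by the mean Pearson r over all pairs of its genes. This mean was 0.0217 over all pairs of members with 50 reads. It was 0.536 in 23 immediate-early genes, 0.530 in 79 cytosolic ribosomal protein genes, 0.468 in 33 proteasome genes, 0.430 in 72 mitochondrial ribosomal protein genes, 0.419 in 17 transfer RNA synthetase genes and 0.413 in 13 mitochondrially encoded genes. Histones followed with 0.343 and nuclear genes of oxidative phosphorylation with 0.264. All other lists stood below 0.1. Without embryo 4 the first 6 means lay between 0.292 and 0.692.

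**Figure D3:**
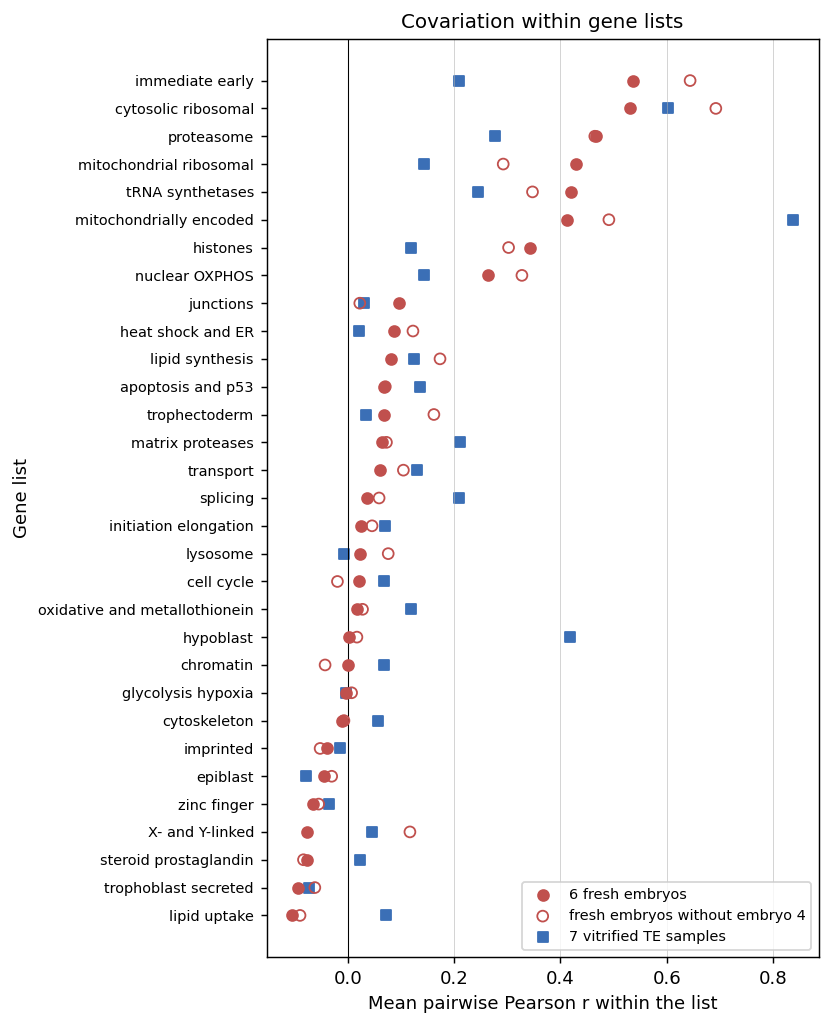
Mean pairwise Pearson r within each of 31 gene lists in the 6 fresh embryos (filled red), without embryo 4 (open red) and in 7 vitrified TE samples (blue squares). Immediate-early, cytosolic ribosomal, proteasome, mitochondrial ribosomal, transfer RNA synthetase and mitochondrially encoded genes stand above 0.4 in the fresh embryos, and trophectoderm, epiblast and hypoblast genes stand near 0.

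Cytosolic ribosomal protein genes formed the largest coherent programme. RPL31, a large-subunit protein, had 163, 190, 114, 238, 187 and 151 scaled RPKM in embryos 1 to 6. RPS21, a small-subunit protein, had 265, 298, 164, 347, 304 and 217 scaled RPKM. Both were highest in embryo 4 and lowest in embryo 3. Over the list, 65 of 79 genes were lowest in embryo 3 and 49 were highest in embryo 4, while among all 3539 members with 50 reads these embryos were lowest in 23.8% and highest in 28.3%. The median of the list deviated by -0.39 in embryo 3 and 0.30 in embryo 4 on the log2 scale. Of the 79 genes, 55 had r above 0.8 with the median of the others. An SD of 0.5 or more was reached by 6, against 11.5% of all members.

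With the first axis removed, an alternative added after seeing the data, the mean pairwise r of this list was 0.724. It was 0.692 without embryo 4 and 0.249 without embryo 3. In the vitrified TE samples it was 0.603. In fresh TE it was 0.0362. Without scaling it was 0.351 and with quantile normalization 0.379.

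Some ribosomal protein genes left the programme. RPLP0, of the ribosomal stalk, had 348, 275, 310, 214, 308 and 319 scaled RPKM, and RPL8, a large-subunit protein, had 886, 524, 712, 440, 725 and 726. Both were lowest in embryo 4, with r of -0.637 and -0.603 with the rest of the list. RPL7L1, a paralogue of a ribosomal protein gene, fell outside as well, with r of -0.737 and 9.07 scaled RPKM in embryo 4 against 21.6 to 38.8 in the others. RPS23, a small-subunit protein with an SD of 0.87, had 383 and 441 scaled RPKM in embryos 1 and 5 against 84.1 to 184 in the others. In all, 9 of the 79 genes had r below 0 with the median of the others. Ribosomal protein genes have many near-identical pseudogenes, and how the authors' counting treated reads shared with them is not given in the sources used here.

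Mitochondrial ribosomal protein genes, whose products translate the mitochondrial genome, had another pattern. MRPL20, a large-subunit protein, had 185, 150, 135, 92.3, 180 and 215 scaled RPKM in embryos 1 to 6. MRPL11 had 54.0, 42.4, 48.2, 33.2, 47.3 and 61.1 scaled RPKM, and MRPS25, of the small subunit, had 4.45, 2.77, 3.59, 1.51, 3.89 and 4.51. These 3 genes were lowest in embryo 4 and highest in embryo 6. Of 72 genes in the list, 50 were lowest in embryo 4 and 31 highest in embryo 6, against 36.9 and 24.9% of all members with 50 reads. MRPL4, of the large subunit, ran opposite, with 2.85 scaled RPKM in embryo 4 and 1.92 to 2.56 in the others. The mean pairwise r of the list was 0.292 without embryo 4, 0.199 with quantile normalization, 0.143 in the vitrified TE samples and 0.141 in fresh TE.

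Proteasome genes, which encode the protease complex that degrades ubiquitin-tagged proteins, varied with the mitochondrial ribosome. PSMB4, a subunit of the inner rings of the core, had 195, 155, 197, 130, 198 and 244 scaled RPKM, and PSMA5, of the outer ring of the core, had 16.8, 15.1, 17.1, 10.3, 17.6 and 24.8. Of 33 members, 23 were lowest in embryo 4 and 23 highest in embryo 6, as both of these were. Among all members with 50 reads these shares were 36.85 and 24.87%. PSMD1 and PSMD2, the large scaffold subunits of the regulatory particle, were exceptions, with r of -0.674 and -0.651 with the rest of the list. PSMD1 had 2.49 scaled RPKM in embryo 4 and 1.34 to 1.90 in the others. The mean pairwise r was 0.465 without embryo 4, 0.278 in vitrified TE and 0.122 in fresh TE. No member had an SD of 0.5 or more, against 11.5% of all members.

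The medians of the lists were compared pair by pair, in 465 pairs, of which 28 had r of at least 0.8 and 28 of at most -0.8 over the 6 embryos. Mitochondrial ribosomal and proteasome genes had r of 0.957 (rho = 0.829, 0.674 without the 2 embryos farthest from the median), and the r was 0.816 without embryo 4 and 0.833 in the vitrified TE samples. Cytosolic and mitochondrial ribosomal genes had r of -0.474 (rho = -0.543, -0.837 without embryos 3 and 4). With single embryos left out it ranged between -0.908, without embryo 3, and 0.115, without embryo 4, so its size and sign depended on which embryos were used. Cytosolic ribosomal genes and transfer RNA synthetases, which charge transfer RNAs with amino acids, had r of 0.716 (rho = 0.771, 0.795 without embryos 3 and 4), 0.478 without embryo 4 and 0.880 in vitrified TE. All these lists share the 6 libraries and their depths.

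**Figure D4:**
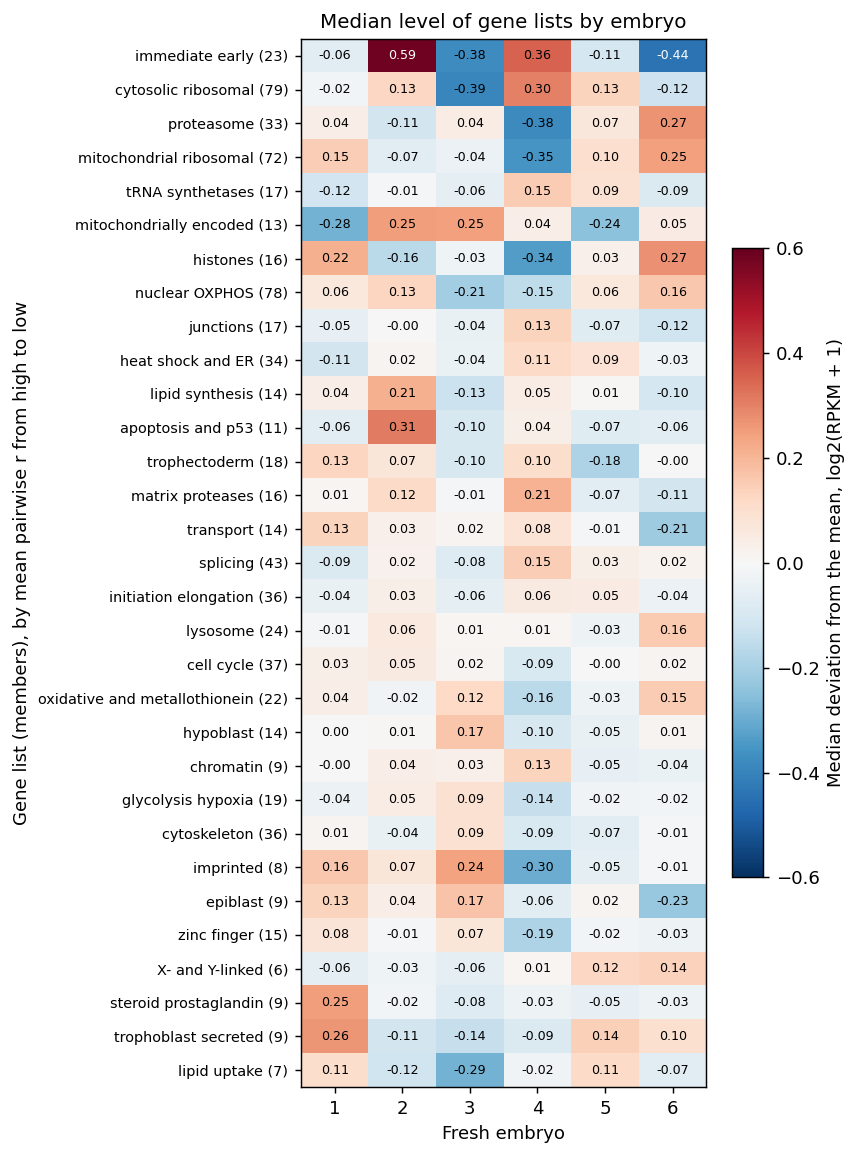
Median deviation of the members of 31 gene lists from their mean over the 6 embryos, in log2(RPKM + 1), with embryos in columns and lists in rows ordered by mean pairwise r. Cytosolic ribosomal genes are lowest in embryo 3 and highest in embryo 4, while proteasome and mitochondrial ribosomal genes are lowest in embryo 4 and highest in embryo 6.

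Transfer RNA synthetases varied over a narrow range. NARS, which charges the asparagine transfer RNA, had 5.70, 6.94, 5.69, 9.89, 7.07 and 5.06 scaled RPKM, and GARS, the glycine enzyme, had 1.54, 1.88, 1.91, 2.98, 2.43 and 1.95. Both were highest in embryo 4, as were 10 of the 17 genes in the list, against 28.3% of all members with 50 reads. Their median SD was 0.17, below the 0.25 of all members. None had an SD of 0.5 or more, against 11.5% of all members.

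Immediate-early genes, which respond within minutes to growth factors, stress or handling, had the widest spread of the coherent lists. FOS, a subunit of the AP-1 transcription factor, had 4.53, 25.2, 5.49, 13.4, 5.53 and 4.05 scaled RPKM in embryos 1 to 6. EGR1, a zinc finger factor, had 8.78, 23.4, 8.59, 30.4, 11.96 and 6.92 scaled RPKM. Embryos 2 and 4 were high and the other 4 lay close together for both genes. CTGF, a matrix protein gene driven by the YAP coactivator, had 35.3 scaled RPKM in embryo 2 and 12.5 in embryo 4, against 4.57 to 8.11 in the others. DUSP1, a phosphatase that ends MAP kinase signals, had 38.2 and 23.0 scaled RPKM in embryos 2 and 4, against 8.96 to 16.9 in the others. JUNB, another AP-1 subunit, stood apart, with its highest value, 11.8 scaled RPKM, in embryo 1 and its lowest, 5.50, in embryo 4.

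In this list 12 of 23 genes had an SD of 0.5 or more, against 11.5% of all members, and the median SD was 0.53. The highest embryo was embryo 2 for 12 genes and embryo 4 for 8, against 10.7 and 28.3% of all members with 50 reads, and the lowest was embryo 6 for 11, against 12.5%. The mean pairwise r was 0.644 without embryo 4, 0.444 with the first axis removed, 0.210 in vitrified TE and 0.211 in fresh TE. The median of the list had r of 0.755 with that of cytosolic ribosomal genes (rho = 0.657, 0.723 without embryos 2 and 4) and -0.785 with that of proteasome genes (rho = -0.886, -0.653 without embryos 2 and 4). Recovery and handling times of single embryos are not given in the labels, and their part was not tested.

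**Figure D5:**
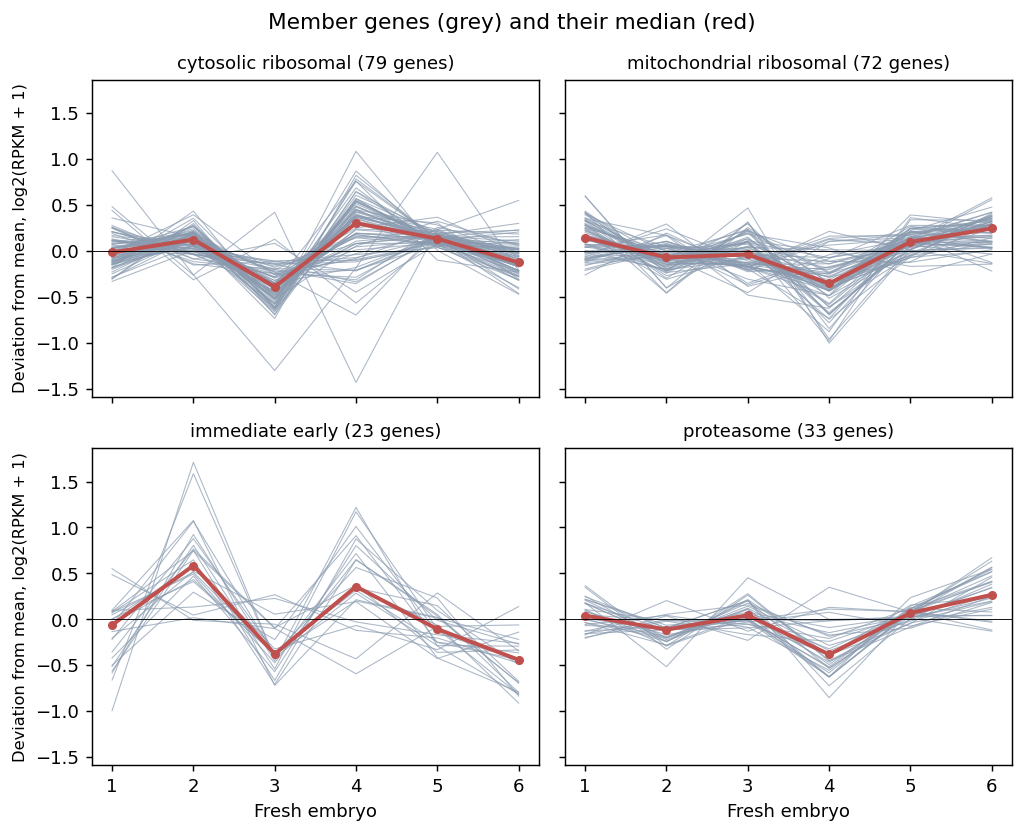
Deviation of each gene from its mean over the 6 embryos, in log2(RPKM + 1), for members with 50 reads of 4 lists (grey lines) and their median (red). Embryos have no order, and lines only join the values of a gene. Cytosolic ribosomal genes dip in embryo 3, mitochondrial ribosomal and proteasome genes dip in embryo 4, and immediate-early genes peak in embryos 2 and 4.

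Messenger RNAs encoded by the mitochondrial genome varied together in part. MT-CYB, the cytochrome b of complex III, had 1360, 2245, 2571, 2189, 1565 and 2132 scaled RPKM in embryos 1 to 6. COX1, a core subunit of complex IV, had 3727, 6209, 4619, 5309, 4432 and 4886 scaled RPKM. Embryo 1 was lowest for both, and for 9 of the 13 genes, against 11.05% of all members with 50 reads. The mean pairwise r was 0.413, and 0.285 without embryo 1. It was 0.839 in the vitrified TE samples and 0.146 in fresh TE. Of the 13 genes, 4 had r above 0.8 with the median of the others. MT-ATP8, a small subunit of the ATP synthase whose gene overlaps its neighbour, had the widest spread, 56.1 to 210 scaled RPKM, with an SD of 0.74, and overlapping reads may be split between these genes.

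Nuclear genes for the same respiratory complexes did not share this pattern. COX5B, a complex IV subunit, had 302, 341, 227, 240, 319 and 336 scaled RPKM, and NDUFB8, of complex I, had 78.5, 88.4, 67.8, 70.4, 84.4 and 99.0. Embryos 3 and 4 were low for both. The 78 genes had a mean pairwise r of 0.264, which was 0.524 with the first axis removed, 0.154 without scaling, 0.144 when scaled to reads in listed genes, 0.102 with quantile normalization and 0.133 without embryo 3. An SD of 0.5 or more was reached by 4 of them, against 11.5% of all members. The medians of nuclear and mitochondrially encoded genes had r of -0.284 (rho = 0.0857), and 0.816 without embryos 3 and 4, so these 6 embryos gave no stable relation between them. In the 7 vitrified TE samples the same r was -0.837 (rho = -0.714).

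Trophectoderm genes had a mean pairwise r of 0.0675 over 18 members, which was 0.162 without embryo 4 and 0.319 with the first axis removed. KRT18 had 1258, 1201, 881, 1745, 979 and 947 scaled RPKM, and its filament partner KRT8 had 498, 435, 450, 349, 350 and 432. Embryo 4 was thus highest for KRT18, and for KRT8 it was lowest together with embryo 5. GATA2, a transcription factor of the trophoblast, had 7.86, 13.2, 6.16, 14.3, 7.16 and 6.22 scaled RPKM, and TFAP2C, another, had 5.46, 10.1, 3.08, 9.96, 5.36 and 6.34. Both were high in embryos 2 and 4. ID2, which blocks DNA binding by basic helix-loop-helix proteins, ran opposite, with 82.0, 56.6, 93.9, 32.5, 71.6 and 73.1 scaled RPKM. On the first axis 4 of the 18 members had r above 0.8 and 5 below -0.8, shares near the 18.2 and 23.5% of all members. An SD of 0.5 or more was reached by 6 members, against 11.5% of all members, among them SOX15, a SOX family factor, with 0.88.

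Some secreted products of the trophoblast varied widely, and the list as a whole had no common order of embryos. The IFNT gene row, for interferon tau, had 15.3, 6.67, 9.60, 22.2, 13.4 and 9.35 scaled RPKM. Embryo 4 was highest and embryo 2 lowest, and the near-identical copies of this gene family make its count uncertain. PAG11, a pregnancy-associated glycoprotein of another multigene family, had 13.1, 9.64, 6.84, 4.42, 13.8 and 10.2 scaled RPKM, and embryo 4 was lowest. PTGS2, the prostaglandin synthase of the early embryo, varied less, with 36.7 to 60.3 scaled RPKM and an SD of 0.26. Of the 9 members of the list, 5 had an SD of 0.5 or more, against 11.5% of all members, and their mean pairwise r was -0.0942.

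Among epiblast genes, POU5F1 had 2.22, 1.73, 5.28, 1.82, 1.04 and 1.07 scaled RPKM, from 113 reads on average. NANOG, below the mean threshold, had 0.543, 0.590, 2.22, 1.23, 0.378 and 0.421, from 50 reads on average. Embryo 3 was highest for both. ZFP42, a zinc finger gene of pluripotent cells, had 20.6, 15.3, 48.2, 4.24, 14.3 and 38.1 scaled RPKM, so embryo 3 was highest again but embryo 6 followed and embryo 4 was lowest. KLF4, a reprogramming factor also found in epithelia, had 6.14, 14.1, 6.02, 13.6, 10.5 and 6.27 scaled RPKM, with embryos 2 and 4 highest. Of 9 members, 5 had an SD of 0.5 or more, against 11.5% of all members, and the mean pairwise r was -0.0446. Embryo 3 was highest for 4 of these 9 and lowest for 3. Over all 30 epiblast genes found, members or not, it was highest for 14 and lowest for 3. Of the 19 that averaged at least 10 reads, it was highest for 9 and lowest for 3. Among all members with 50 reads it was highest in 11.8%, but many of the 30 genes had fewer reads. The medians of trophectoderm and epiblast lists had r of -0.0651 (rho = 0.0286).

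Hypoblast genes differed in their order of embryos. The yolk sac lipoprotein gene APOE had 59.0, 31.9, 42.6, 11.5, 33.7 and 41.9 scaled RPKM, and CTSV, a lysosomal protease, had 28.3, 26.5, 47.9, 14.4, 22.0 and 37.5. Both were lowest in embryo 4. The matrix genes SPARC, a collagen-binding protein, and LAMB1, a laminin chain of basement membranes, were highest there, at 6.06 and 1.59 scaled RPKM. Of 14 members, 3 had r above 0.8 and 4 below -0.8 on the first axis, beside 18.2 and 23.5% of all members, and the mean pairwise r was 0.00242. It was 0.418 in the 7 vitrified TE samples and -0.0463 in fresh TE. The median of the list had r of -0.949 with that of cytosolic ribosomal genes (rho = -0.943, -0.635 without embryos 3 and 4), and -0.00814 in vitrified TE. This was 1 of the 465 pairs. With the median of the other hypoblast genes, 0 of the 14 had r above 0.8 and 7 had r below 0. The median of the list is thus not a profile that its genes shared.

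Most cell cycle genes had small SDs on this scale. TPX2, which assembles the mitotic spindle, had 0.900 to 1.12 scaled RPKM and an SD of 0.05. The pseudocount of 1 narrows the SD of genes at such low levels. UBE2C, the ubiquitin-conjugating enzyme of mitotic exit, had 85.9, 70.7, 77.2, 39.5, 72.5 and 101 scaled RPKM, lowest in embryo 4. CENPA, the histone of centromeres, was highest there, at 13.1 scaled RPKM against 4.06 to 8.87 in the others. Only CENPA of the 37 members had an SD of 0.5 or more, against 11.5% of all members, and the median SD was 0.19. CALR, a chaperone of the endoplasmic reticulum, and LDHB, a lactate dehydrogenase subunit, were among the steadiest genes of their lists, with SDs of 0.08 and 0.06.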

How the data were processed

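RNA of whole embryos or isolated trophectoderm was sequenced in 20 samples, and the 6 columns of fresh whole embryos were analysed, with 7 vitrified and 5 fresh TE columns beside them. The submitters' processing notes name FastQC, Partek, STAR 2.5.3a and the UMD3.1 assembly. How reads were counted is not given in the sources used here. Values in the deposited table are RPKM over genomic span with an offset of 0.01, a unit inferred from the values; 94.8 to 95.3% of checked values under 1000 reads were within 0.1 of whole reads. The offset was subtracted, libraries were scaled by median ratios, and log2(value + 1) was taken. The 358 members averaging under 50 reads were left out of clusters and of pairwise correlations within lists; axes and list medians used every member. Counting SDs cover counting error only.

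Named genes were the 20 largest SDs, up to 3 largest and the smallest SD in each list, and 5 leading genes per cluster, with GATA3, POU5F1, NANOG, SOX2, GATA6, IFNT and PAG2. Genes shown as typical of a list or as exceptions to it, and the defence genes other than SAA3 and M-SAA3.2, were chosen after their values were seen. The members and lists were chosen with earlier results of these data known. Lists held 1127 symbols, 8 of which were found through a synonym. No group was compared. The only criterion applied was Dixon's, to single embryos, as a description. Of the 5 fresh TE columns, samples 1 and 2 and samples 3 and 4 differed little more than by counting (chi-square per degree of freedom 1.89 and 1.48, against 12 to 22.8 for other pairs), so fresh TE values rest on about 3 samples, and correlations between list medians are given for vitrified TE only. Nothing in the labels shows whether the embryos share dams or a recovery session. Calculations used Python 3.11.15 with numpy 2.4.6, scipy 1.17.1 and pandas 2.3.3. The axis and correlation code was tested on simulated data.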

Additional observations from a re-analysis of the deposited data

Results flagged for a closer look

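Values of 101 named genes, 31 list medians and 9 library measures were examined for 1 embryo far from the other 5, by the gap to the nearest value divided by the whole range, with Dixon's 95% critical value for 6 samples as the limit. Chance marks about 1 in 20 such groups. Of the 141 values 10 passed, and of all 3539 members with 50 reads 204 passed (5.76%). Many of these genes were named for a large SD or a wide gap over the same 6 values, so passing is a description and supports nothing further.

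Embryo 4 stood apart on the log2 scale for SAA3 (gap ratio 0.639), SRARP (0.753) and TM4SF1 (0.736), where it was high, and for PAGE4 (0.693), IFITM3 (0.683) and DDX3Y (0.735), where it was low. TM4SF1, a membrane protein of the tetraspanin-like L6 family, had 5.74 scaled RPKM in embryo 4 and 0.106 to 0.782 in the others, and its SD of 0.96 became 0.28 without embryo 4. In S100A1, a calcium-binding protein, embryo 5 stood apart (0.751), with 11.1 scaled RPKM against 0.851 to 1.95 in the others. GATA3, a trophoblast transcription factor below the mean threshold, stood apart in embryo 2 (0.769), with 1.07 scaled RPKM against 0.366 to 0.503 in the others. The median of apoptosis and p53 genes was high in embryo 2 (0.671) and that of steroid and prostaglandin genes high in embryo 1 (0.818). The causes were not tested.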

How the results depend on the processing

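The number of members was 1839 with a mean of at least 5 RPKM and 15096 with no filter. An SD of 0.5 or more was reached by 776 genes with a pseudocount of 0.1 and by 273 with a mean of at least 5, and leaving out 1 embryo gave 231 to 556. The first axis held 50.6% of the variance with standardised genes and 49.6 to 68.2% with 1 embryo left out. Mean r in cytosolic ribosomal genes was 0.351 as deposited, 0.379 with quantile normalization and 0.724 with the first axis removed, and 0.249 to 0.692 with 1 embryo left out. In immediate-early genes it was 0.633 with a mean of at least 5, 0.444 with the first axis removed and 0.458 to 0.649 with 1 embryo left out. In trophectoderm genes it was 0.319 with the first axis removed and 0.0129 to 0.162 with 1 embryo left out. In epiblast genes it was -0.0171 as deposited, -0.0134 per reads of listed genes, -0.0204 with quantile normalization, -0.149 with a mean of at least 5, 0.029 with no filter, -0.0883 with genes of 1 list only, 0.064 with the first axis removed, and -0.0758 to -0.0102 with 1 embryo left out. The r between cytosolic and mitochondrial ribosomal genes was -0.908 to 0.115 with 1 embryo left out, positive only without embryo 4. The largest cluster held 168 of 250 and 618 of 1000 genes when other numbers of genes were clustered. The cause was not tested. No paired analysis was possible because no groups were compared. Depth limits genes with few reads, such as ISG15, and 6 embryos limit every r.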

Other observations

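Small groups of variable genes had patterns of their own. A cluster of 8 genes was highest in embryo 3 and held POU5F1 together with NNAT, an imprinted gene of neural and early embryonic tissue, TUBA1A, an alpha tubulin, and MT2A, a metallothionein that binds zinc. NNAT had 5.35, 5.04, 16.5, 3.58, 1.08 and 2.60 scaled RPKM in embryos 1 to 6, and TUBA1A had 6.22, 8.20, 15.6, 6.45, 5.09 and 5.93. MT2A was highest in embryo 4 instead, at 24.6 scaled RPKM, and had 17.5 in embryo 3. The cluster's mean pairwise r was 0.611, -0.0197 in the 7 vitrified TE samples and 0.165 in fresh TE.

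A cluster of 7 genes was highest in embryo 5 and held the calcium-binding genes S100A1, S100A2 and S100A4 beside RPS23. S100A2 had 53, 22.4, 20.1, 31.0, 83.5 and 26.9 scaled RPKM, and S100A4 had 5.44, 3.40, 0.924, 2.56, 6.46 and 4.03. S100A1 stands on chromosome 3, as do S100A2 at 16869280 to 16872614 and S100A4 at 16887102 to 16888571. ASIP, the agouti signalling gene, and GSTO1, a glutathione transferase, formed a pair that was low in embryos 1 and 5. ASIP had 0.0778, 2.27, 1.63, 1.16, 0.190 and 1.73 scaled RPKM, and GSTO1 had 0.424, 1.73, 1.75, 1.88, 0.382 and 2.66. These clusters come from the values that define them, and in vitrified TE the mean pairwise r was 0.218 for the cluster of 7 and -0.503 for the pair, and in fresh TE -0.104 and 0.657.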
